A study of Mus musculus with 2 samples.

Results

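The Schlafen genes are a mouse family whose first members were found as growth regulators of T cells, and 7 of them were followed here: Slfn1, Slfn2, Slfn3, Slfn4, Slfn5, Slfn8 and Slfn9. They were chosen by symbol, and all 7 were found among the 35602 gene symbols of the count table. The samples were breast tumour tissue of mice, with 1 library from mice injected intraperitoneally with a PD-1 inhibitor (the PD-1 inhibitor library) and 1 from mice that received acupuncture on top of the same injection (the acupuncture library). PD-1 blockade was thus shared by both groups, and no untreated tumour was analysed here. The sources used here do not give strain, age, tumour model or the number of animals behind each library. The comparison asks what acupuncture adds, in tumour transcripts, to blockade of the T cell checkpoint receptor PD-1. With 1 library per group there was no replicate check and no test, so each difference is between these 2 libraries. Each interval covers counting error only, apart from the intervals of list medians, which cover the spread of genes.

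Schlafen proteins share a core domain that in several members cleaves or binds transfer RNA, and many of the genes are induced by type I interferon. Short members (Slfn1 and Slfn2) consist of little more than that core, intermediate members (Slfn3 and Slfn4) carry an added linker domain, and long members (Slfn5, Slfn8 and Slfn9) carry a helicase-like domain as well. In mice they are known mainly from T cells, monocytes and macrophages, where they are tied to quiescence, differentiation and antiviral defence. The annotated coding lengths followed these classes, with 337 and 378 codons for Slfn1 and Slfn2, 640 and 602 for Slfn3 and Slfn4, 884 for Slfn5 and 910 each for Slfn8 and Slfn9. All 7 genes lie in 1 cluster on chromosome 11, in the order Slfn5, Slfn9, Slfn8, Slfn2, Slfn1, Slfn4 and Slfn3.

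The family as a whole was somewhat more abundant with acupuncture, but its members did not differ alike. Slfn5, Slfn8, Slfn9 and Slfn1 were 1.53 to 1.89 times as abundant as in the PD-1 inhibitor library, Slfn2 and Slfn3 were within 1.16 times, and Slfn4 was 1.78-fold lower. Summed over the 7 genes there were 35843 counts in the PD-1 inhibitor library and 30734 with acupuncture, from libraries of 105728292 and 60752043 counts. Expressed as CPM, counts per 1000000 of a library size scaled by the TMM method, the sum was 351 and 488 CPM, a ratio of 1.39 (95% counting interval 1.37 to 1.41). None of the 7 members passed the 2-fold limit used for calls (at least 2-fold, interval excluding 1, combined count of at least 20), while 14.1% of the 18687 genes tested did so in either direction, 9.21% higher and 4.9% lower. At a 1.5-fold limit 4 of 7 members were higher, against 14.3% of all genes tested, and 1 of 7 was lower, against 10.3%. The interval alone excluded 1 for every member, 6 higher and 1 lower, but at this depth it did so for 35.1% and 34.8% of all genes tested, and Slfn2 and Slfn3 went to 0.924 and 0.952 when the libraries were scaled to leukocyte genes. In bulk tissue fewer cells of a type and less RNA per cell cannot be told apart, which holds for each value here. The median log2 ratio of the members was 0.61, beside 0.0003 over all genes tested.

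**Figure D1:**
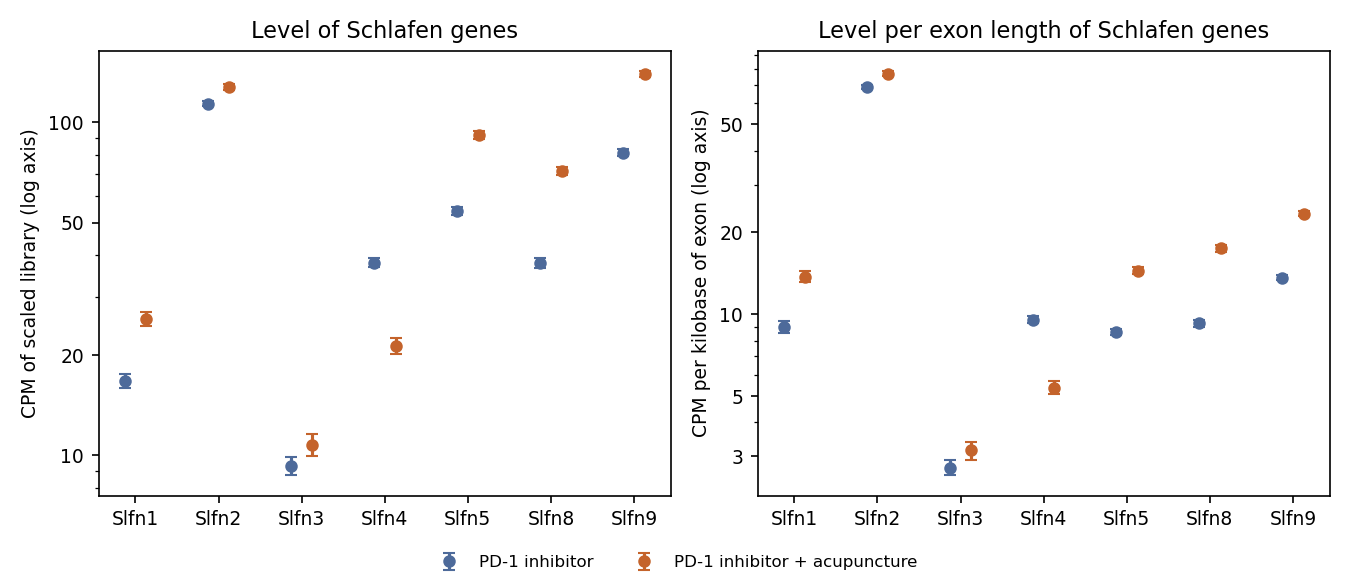
Levels of the 7 Schlafen genes in the 2 libraries, as CPM of the scaled library size (left) and as CPM per kilobase of annotated exon (right), both on log axes. Points are single libraries and bars are exact 95% Poisson intervals of the count. Slfn4 is the only gene whose point with acupuncture (21.3 CPM) lies under that of the PD-1 inhibitor library (37.9 CPM), and Slfn2 is the highest gene per kilobase in both libraries.

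Among the short members, Slfn2 was the most abundant Schlafen transcript of the PD-1 inhibitor library. It is needed for quiescence and survival of T cells and monocytes and protects transfer RNA from cleavage under oxidative stress. Slfn2 had 11624 counts (114 CPM) in the PD-1 inhibitor library and 8044 counts (128 CPM) with acupuncture, a ratio of 1.12 (1.09 to 1.16). That is a small difference, and 35.5% of all genes tested had a higher ratio. Slfn1, which slows the growth of thymocytes when overexpressed, stood at 1709 counts (16.7 CPM) and 1613 counts (25.6 CPM). Its ratio was 1.53 (1.43 to 1.64), higher than that of Slfn2, and 15.5% of genes tested lay above it. Within each library, free of any scaling between them, there were 0.147 Slfn1 counts per Slfn2 count (0.140 to 0.155) in the PD-1 inhibitor library and 0.201 (0.190 to 0.212) with acupuncture.

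The intermediate members Slfn3 and Slfn4 lie next to each other and had coding sequences 92.2% identical over their aligned bases, yet their values went apart. Slfn4, an interferon-induced gene of macrophages and other myeloid cells that marks a suppressor-type myeloid population in the inflamed mouse stomach, had 3869 counts (37.9 CPM) in the PD-1 inhibitor library and 1340 counts (21.3 CPM) with acupuncture. It was the single member that was lower with acupuncture, 1.78-fold (1.67 to 1.89), and 7.19% of genes tested had a lower ratio. Slfn3, studied in T cells and in differentiation of gut epithelium, was the least abundant member, at 949 counts (9.30 CPM) and 677 counts (10.8 CPM), with a ratio of 1.16 (1.05 to 1.28). Slfn3 had 0.245 counts per Slfn4 count (0.228 to 0.263) in the first library and 0.505 (0.460 to 0.555) in the second, a 2.06-fold difference that no library scaling can change. Of the 50-base stretches of the annotated Slfn3 transcripts 7.39% also occur in another Slfn gene, each of these in Slfn4, and 8.15% of those of Slfn4 do. The split of reads between this pair is uncertain to that extent, and the pair summed had a ratio of 0.679 (0.645 to 0.716).

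Of the classes, the long members were the highest by ratio and had the ratios closest to one another. Across classes, Slfn2 and Slfn3 lay closer still, at 1.12 and 1.16. Slfn9 had 8286 counts (81.2 CPM) in the PD-1 inhibitor library and 8794 counts (139.8 CPM) with acupuncture, a ratio of 1.72 (1.67 to 1.77). In the acupuncture library it exceeded Slfn2 in counts, though not per length of exon, with 0.915 Slfn2 counts per Slfn9 count (0.887 to 0.943) against 1.40 (1.36 to 1.44) in the PD-1 inhibitor library. Slfn8 had 3862 counts (37.8 CPM) and 4502 counts (71.6 CPM), a ratio of 1.89 (1.81 to 1.98), the member nearest to the 2-fold limit. Scaled by total counts it passed that limit, at 2.03. Slfn5, a nuclear member that can repress transcription, had 5544 counts (54.3 CPM) and 5764 counts (91.6 CPM), a ratio of 1.69 (1.63 to 1.75). Between 10.6% and 12.8% of genes tested had a higher ratio than these 3 members.

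Slfn5 and Slfn9 held to nearly the same proportion in both libraries, at 0.669 Slfn5 counts per Slfn9 count (0.647 to 0.692) and 0.655 (0.634 to 0.678), so their difference from each other was not detectable at this depth. Over the 21 pairs of members, these within-library intervals overlapped between libraries for 3, the others being Slfn1 with Slfn5 and Slfn2 with Slfn3. Overlap does not show an equal proportion, as Slfn1 per Slfn5 was 0.308 (0.292 to 0.326) in the PD-1 inhibitor library and 0.280 (0.265 to 0.296) with acupuncture. Pairs of other genes were not compared, so it is unknown whether 3 of 21 is few. Slfn8 and Slfn9 had coding sequences 92.7% identical, and 14.6% and 11.2% of their 50-base stretches occur in another Slfn gene, mainly in the neighbouring pseudogene Slfn10-ps. Summed over Slfn8, Slfn9 and Slfn10-ps the ratio was 1.76 (1.71 to 1.80), so shifting reads among these 3 would leave their joint value higher. No 50-base stretch of Slfn5 occurs in another Slfn gene. A long noncoding gene on the opposite strand, Slfn5os, overlaps Slfn5, and the sources used here do not say whether counting used strand, but it took only 4 and 6 counts.

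**Figure D2:**
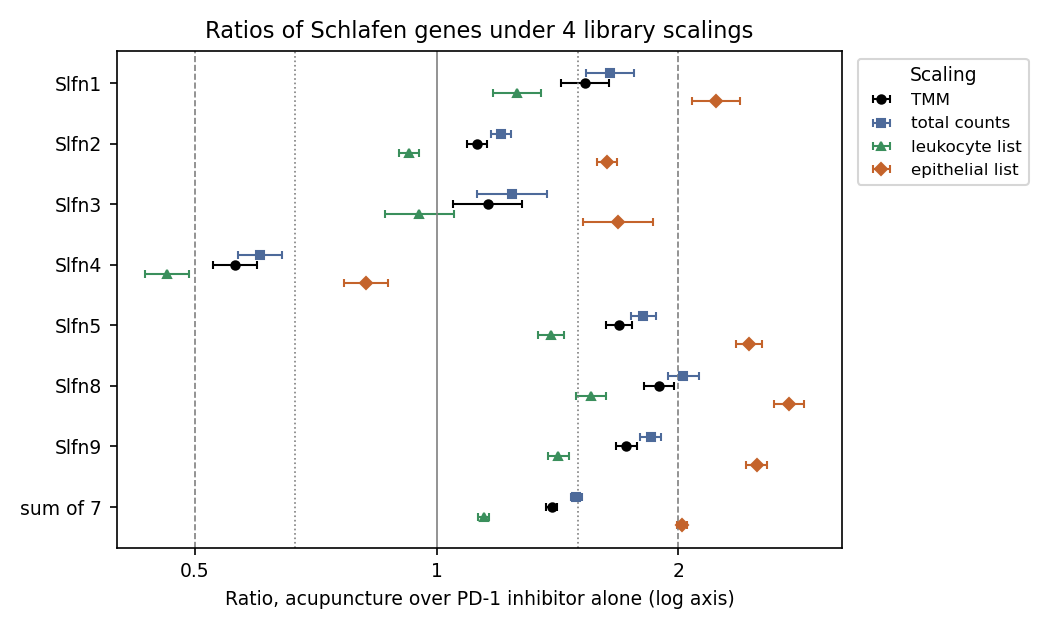
Ratio of acupuncture over the PD-1 inhibitor alone for each Schlafen gene and for their sum, on a log axis, under TMM scaling and 3 other library scalings. Bars are exact 95% intervals from the split of the counts, dashed lines mark 2-fold and dotted lines 1.5-fold. Slfn4 lies left of 1 under all 4 scalings (0.462 to 0.816), while Slfn1, Slfn5, Slfn8 and Slfn9 lie right of 1 under all 4.

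Compared per kilobase of exon, the order of the members shifted between the libraries. In the PD-1 inhibitor library Slfn2 led at 68.4 CPM per kilobase, followed by Slfn9 at 13.6. Slfn4 at 9.56, Slfn8 at 9.25, Slfn1 at 8.98 and Slfn5 at 8.58 came next, each overlapping its neighbour in this order within counting error, and Slfn3 was last at 2.73. With acupuncture Slfn2 stood at 76.8 CPM per kilobase, Slfn9 at 23.4 and Slfn8 at 17.5. Slfn5 at 14.5 and Slfn1 at 13.8 overlapped each other, and Slfn4 at 5.37 had moved to the place just above Slfn3 at 3.15. Slfn4 thus ranked 3 of 7 in the PD-1 inhibitor library and 6 of 7 in the acupuncture library. These lengths are unions of all annotated exons, so a transcript that uses few of them is understated.

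Shares of the family's counts show the same shift without any scaling between libraries. Slfn4 took 10.8% of the family's counts in the PD-1 inhibitor library (exact binomial 95% interval 10.5 to 11.1) and 4.36% with acupuncture (4.13 to 4.59). Slfn2 went from 32.4% (31.9 to 32.9) to 26.2% (25.7 to 26.7). The long members took larger shares with acupuncture, with Slfn9 at 23.1% and 28.6%, Slfn5 at 15.5% and 18.8% and Slfn8 at 10.8% and 14.6%. Slfn1 and Slfn3 were minor components in both libraries, at 4.77% and 5.25% for Slfn1 and 2.65% and 2.20% for Slfn3.

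**Figure D3:**
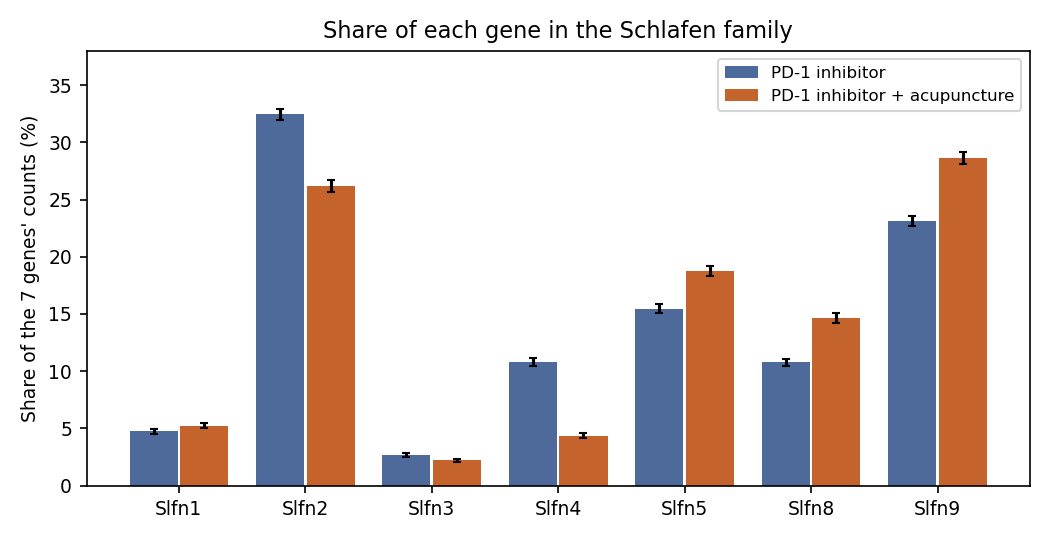
Share of each gene in the summed counts of the 7 Schlafen genes, in percent, in each library. Bars are single libraries and error bars are exact 95% binomial intervals. The share of Slfn4 is 10.8% in the PD-1 inhibitor library and 4.36% with acupuncture, and the shares of Slfn5, Slfn8 and Slfn9 are each larger with acupuncture.

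By class, the 3 long members together had a ratio of 1.75 (1.71 to 1.78), the 2 short members 1.18 (1.14 to 1.21) and the 2 intermediate members 0.679. Gene order along the chromosome ran parallel to this in part. The long members Slfn5, Slfn9 and Slfn8 form 1 end of the cluster, and the other end holds Slfn2, Slfn1, Slfn4 and Slfn3, among them the lone member that was lower. Slfn10-ps, which lies between these blocks, had 286 and 165 counts (2.80 and 2.62 CPM), a ratio of 0.936 (0.768 to 1.14). Slfn14, the next Schlafen gene beyond Slfn3 and a ribosome-associated endonuclease of red cell and platelet precursors, had 2 and 0 counts, both under the floor of 3 counts (0.0294 and 0.0477 CPM), and the Schlafen-like gene Slfnl1 had 9 and 3 counts. Of the protein-coding neighbours with at least 20 combined counts, the 6 before the cluster had ratios from 0.810 to 2.82 and the 4 after it from 0.873 to 1.76. Only Unc45b among them, a myosin chaperone of muscle that lies beside Slfn5, passed the 2-fold limit, at 2.82 (2.50 to 3.18). Skeletal muscle genes were higher in the same library, 10 of 10 past 2-fold.

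**Figure D4:**
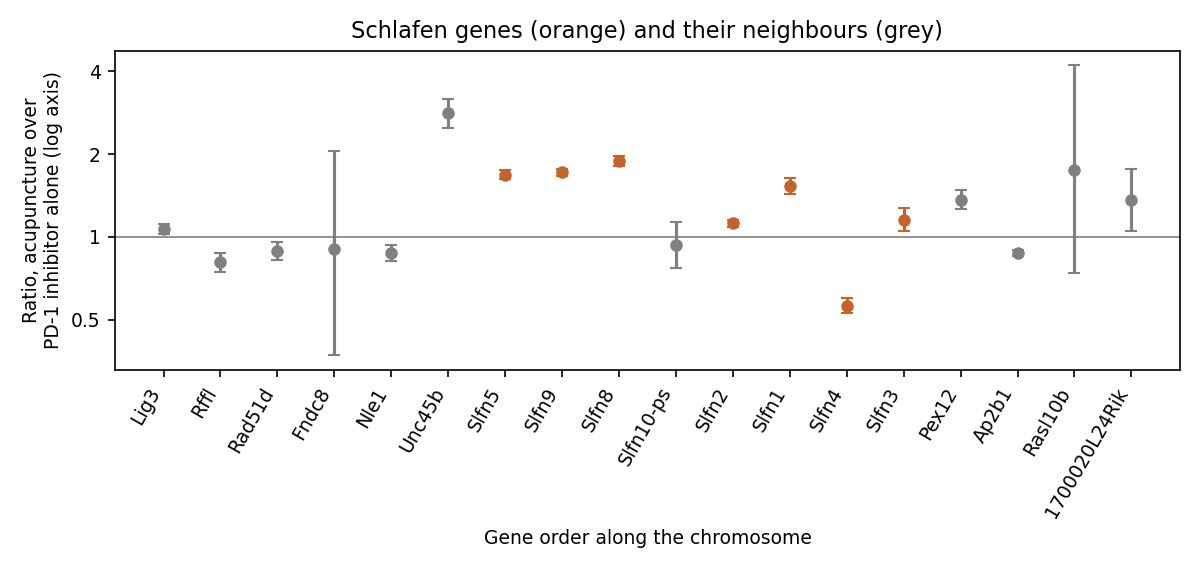
Ratio of acupuncture over the PD-1 inhibitor alone (log axis) for the Schlafen genes and their neighbours with at least 20 combined counts, in their order along chromosome 11. Points are ratios and bars exact 95% counting intervals. Slfn5, Slfn9 and Slfn8 stand side by side at 1.69 to 1.89, whereas Slfn4 is at 0.562 between Slfn1 at 1.53 and Slfn3 at 1.16.

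The promoters of the 3 long members also shared a sequence feature that those of Slfn1, Slfn2, Slfn3 and Slfn4 lacked. RefSeq promoter windows were found for all 7 members, 8 windows in all because Slfn8 has a pair, and the 250 bases before each start were searched for the core of the interferon-stimulated response element (GAAA, any 2 bases, GAAA, or on the other strand TTTC, any 2 bases, TTTC), a site through which type I interferon acts on its target genes. Slfn5, Slfn8 and Slfn9 each held 1 match, and Slfn1, Slfn2, Slfn3 and Slfn4 held none, while 2.98% of all 32851 RefSeq promoters held it. The gamma-activated sequence core TTCNNNGAA, which reads the same on both strands, was in none of the 7, against 7.02% of all promoters. The windows are shown because this feature runs with the class whose ratios were highest, but the motifs were chosen after the ratios were seen. Slfn1, at a ratio of 1.53, held no match, and the matches of the close paralogs Slfn8 and Slfn9 need not be independent. Each line gives 50 bases of build GRCm38.p6, 5′ to 3′ on the strand of the gene, with the match in capitals. The counts themselves carry no coordinates.
Slfn5, chr11:82951927-82951976, plus strand: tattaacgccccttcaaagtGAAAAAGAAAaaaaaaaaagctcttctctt
Slfn9, chr11:82991846-82991895, minus strand: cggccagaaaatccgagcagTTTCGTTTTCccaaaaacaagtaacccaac
Slfn8, chr11:83020829-83020878, minus strand: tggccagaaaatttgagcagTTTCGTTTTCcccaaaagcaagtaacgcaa
In Slfn9 and Slfn8 the match begins 45 and 48 bases before the start, on the strand opposite to the gene, and the 50-base windows, laid side by side without gaps, are identical at 37 bases. The second Slfn8 window, from a start further downstream, holds the same match 136 bases before it. In Slfn5 it begins 155 bases before the start, on the gene's own strand, at the head of a run of A. The Slfn8 and Slfn9 windows overlap no annotated transcript, and the Slfn5 window lies in introns of a noncoding Slfn5 transcript and of Slfn5os. A match describes these letters and does not show binding, and the absence of this core from the other windows says nothing of other forms of the site.

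Genes upstream of the family were set beside it from a list of interferon ligands, receptors and signalling genes. Of 23 listed, 15 had enough counts, of which 2 were higher and none was lower, and their median log2 ratio was 0.35. The type I interferon genes Ifna1, Ifna2, Ifna4 and Ifna5 were at 0 counts in both libraries, Ifnb1 had 6 and 2 counts, and Ifne, a type I interferon of epithelia, had 12 and 0 counts. Ifng, the type II interferon of T and NK cells, had 15 and 167 counts. The type I receptor chains stood close to 1, with Ifnar1 at 103 and 92.9 CPM and a ratio of 0.905 (0.876 to 0.934) and Ifnar2 at a ratio of 0.891. Their kinases Jak1 and Tyk2 had ratios of 1.37 and 0.891. Of the factors that act at the response element, Stat2 stood at 90.7 and 162 CPM, a ratio of 1.79 (1.74 to 1.84), and Irf9 had a ratio of 1.28 (1.24 to 1.32). The interferon-induced factors Irf1 and Irf7 had ratios of 1.84 and 1.56, near those of the long Schlafen genes, whereas Irf3, which is not itself induced by interferon, had 0.772. Among the remaining genes, the kinase Jak2 had a ratio of 0.814, the type II receptor chains Ifngr1 and Ifngr2 had 0.943 and 0.746, and Irf8, a factor of myeloid and B cells, had 1.43.

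Of the Schlafen ratios 5 lay inside the range of the type I interferon response genes, while Slfn2 lay at its edge and Slfn4 far under it. The 28 measured genes of that list ran from 1.14 for Oasl1 to 2.56 for Ifit3. That range is wide, since 34.0% of all genes tested lay above Oasl1 and only 6.50% above Ifit3. Of the 28 genes 7 were higher past 2-fold while none was lower, at a median log2 ratio of 0.82. At 1.5-fold 21 of 28 were higher, against 4 of 7 Schlafen members. Their summed level was 1541 and 2520 CPM, a ratio of 1.64, against 1.39 for the Schlafen sum. The most abundant gene of the list, the membrane tether Bst2, had a ratio of 1.23. Slfn1, Slfn5, Slfn8 and Slfn9 sat at 1.53 to 1.89, within the range, and so did Slfn3 at 1.16. Slfn2 was just under its lower end at 1.12, and Slfn4 at 0.562 was under every gene of the list.

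Likeness between the members and single genes was measured as the distance between log2 ratios, over 2 libraries only, among list genes with at least 100 counts. The 3 genes nearest to Slfn8 were Herc6, Ltb and Xaf1, at ratios of 1.89, 1.91 and 1.85, of which Herc6 and Xaf1 are type I interferon response genes. Those nearest to Slfn5 were Cfd, Usp18 and Parp14 (1.68, 1.67 and 1.71), and Slfn9 had Parp14, Ptprc and Clec9a (1.71, 1.74 and 1.77). Slfn1 had Dhx58, Oasl2 and Plac8 (1.53, 1.54 and 1.55). Nearest to Slfn4 were Chil3 of monocytes (0.541), Cd163 of macrophages (0.539) and Tie1 of endothelium (0.591). For Slfn2 they were Batf3, Ssb and Oasl1 (1.12, 1.11 and 1.14), and Slfn3 had S1pr1 and Fcgr1 among them (both 1.16). The summed family was nearest to Klrb1c, Eif2ak2 and Jak1, at 1.41, 1.38 and 1.37. With 2 libraries many genes share any given ratio, so this is a description of size alone.

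Markers of the cells known to carry Schlafen genes moved in different directions between the libraries. Genes shared by leukocytes had a summed level of 1123 and 1365 CPM, a ratio of 1.22, with none of 10 past 2-fold and 0.50 as the median log2 ratio. The T cell list, which holds the Cd4, Cd5, Cd8a and Cd8b1 genes that the study itself singled out, had 16 of 16 higher and a sum of 35.8 and 211 CPM, and the B cell list had 10 of 10 higher with 4.52 and 143 CPM. Of 8 NK cell genes tested 5 were higher and none lower, with 16.9 and 42.7 CPM, and Klra8 and Klra4 were at 0 in both libraries. Lymph node stroma was 9 of 10 higher with 13.6 and 228 CPM, and Chst4 was at 0 in the PD-1 inhibitor library. Genes of fat and muscle were higher in the same library, with 9 of 10 adipocyte genes higher (518 and 1985 CPM) and 10 of 10 skeletal muscle genes higher (186 and 2091 CPM), and no gene of these at 0. Of the remaining lists, fibroblast genes had 1 of 9 higher and none lower (7085 and 9664 CPM), endothelial genes 1 of 9 lower and none higher (247 and 185 CPM), and platelet and red cell genes 3 of 11 higher and 2 lower (369 and 692 CPM). No Schlafen gene was called at that 2-fold limit. The part of these cells and tissues in the Schlafen ratios above 1 was not tested.

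Neutrophil and macrophage genes were lower in the library in which Slfn4 was lower, while monocyte and dendritic cell genes were not alike. Of 14 neutrophil genes 12 were lower and none higher, with a sum of 587 and 166 CPM and none at 0 in either library. S100a9, an alarmin subunit, was at 111 and 3.16 CPM, and the protease Mmp9 at 310 and 125 CPM. Monocyte genes went both ways, with 5 of 10 above a ratio of 1, 1 called higher and 1 lower. The classical monocyte marker Ly6c2 was 2.79-fold higher, and the chemokine receptor Ccr2 had a ratio of 1.25. The 1 gene called lower, Cd177 at 0.239, is known mainly from neutrophils. Their sum of 6177 and 4005 CPM was mostly fibronectin, Fn1, and without it was 602 and 576 CPM. Dendritic cell genes had 3 of 10 higher and none lower, with 269 and 312 CPM. Most of that sum was Bst2 (206 and 253 CPM), which is also on the type I interferon response list. Macrophage genes had 3 of 13 lower and none higher, with 7782 and 4594 CPM, none at 0, and arginase, Arg1, at 315 and 68.2 CPM. Slfn4 at a ratio of 0.562 lay between the sums of the neutrophil list at 0.284 and the macrophage list at 0.590. The largest part of that macrophage sum was Spp1, at 4402 and 2054 CPM with a ratio of 0.467. The median ratio of the macrophage list was 0.789, above the ratio of Slfn4. The part of any of these cells in the Slfn4 value was not tested.

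Which Schlafen genes passed 2-fold between the libraries depended on what the libraries were scaled to. Set against the summed leukocyte list, Slfn8 had a ratio of 1.56, Slfn9 of 1.42, Slfn5 of 1.39 and Slfn1 of 1.26. Slfn2 and Slfn3 went to 0.924 and 0.952, and Slfn4 went to 0.462, past 2-fold. By that scaling 1630 of the 18687 genes tested were lower past 2-fold. The epithelial list was present in both libraries, led by keratin Krt8 at 1564 and 1060 CPM. Its presence does not separate tumour from normal epithelium, so the tumour label was not tested. The 12 genes of the epithelial list had 3 lower, none higher and a sum of 4437 and 3054 CPM. Set against that sum, Slfn1, Slfn5, Slfn8 and Slfn9 passed 2-fold, at 2.23, 2.45, 2.75 and 2.50. By that scaling 19.1% of all genes tested were higher past 2-fold, against 9.21% by TMM. Both scalings were chosen after the data were seen, and they shift every gene, by -0.28 and 0.54 at the median of all genes tested on the log2 scale.

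**Figure D5:**
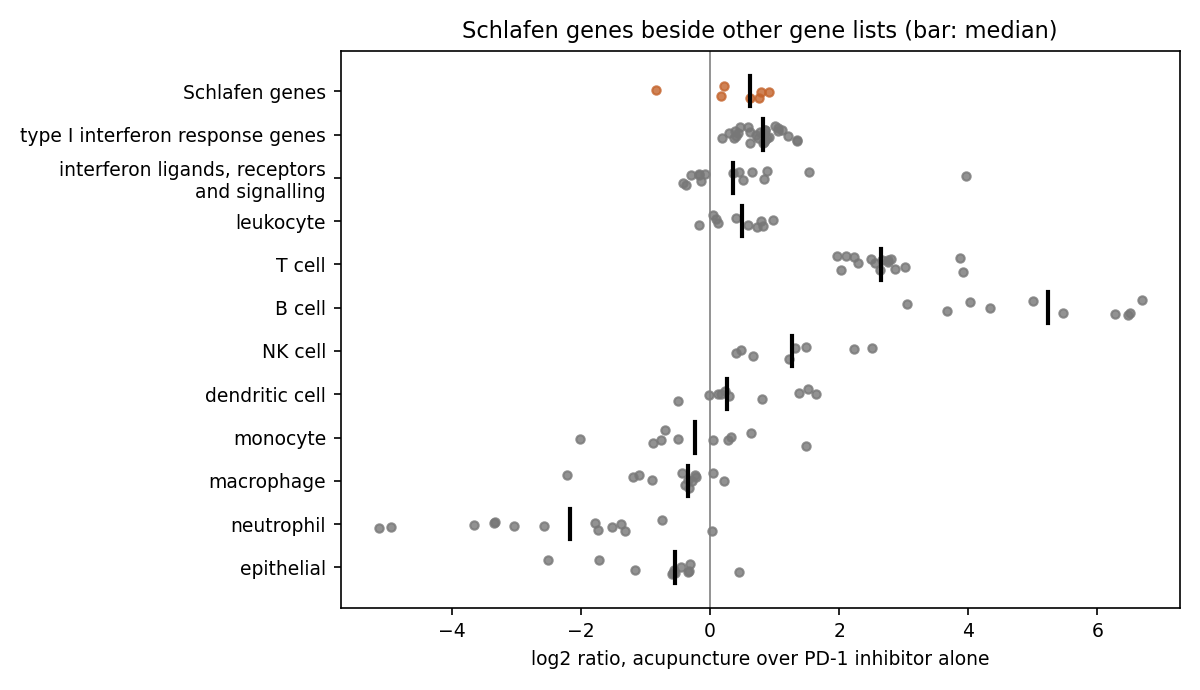
Log2 ratio of acupuncture over the PD-1 inhibitor alone for the Schlafen genes (orange) and for the genes of 11 lists (grey), each point 1 gene with a combined count of at least 20, spread vertically for display. Black bars are list medians. The Schlafen median is 0.61, between those of the leukocyte list (0.50) and the type I interferon response (0.82), with Slfn4 alone at the left.

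Genes of the processes that Schlafen proteins act on were mostly near 1. Of 8 tested genes of transfer RNA cleavage and protection none was called higher or lower, with a median log2 ratio of 0.07 and a sum of 701 and 719 CPM. Angiogenin, Ang, the ribonuclease against whose cuts Slfn2 protects transfer RNA, was scarce, at 171 and 92 counts with a ratio of 0.873 (0.670 to 1.13). The most abundant gene, the RNA chaperone Ssb, had a ratio of 1.11. Ang2, a relative of angiogenin with only 10 and 14 counts, had a ratio of 2.27 whose interval held 1 (0.938 to 5.72). Slfn2, at 1.12, was within the range of these genes. Of 16 genes of lymphocyte quiescence, the state that Slfn2 helps to keep, 5 were higher and none was lower, and the median log2 ratio was 0.38. The antiproliferative gene Btg1, the most abundant, had a ratio of 0.887, and the T cell factor Lef1 was 4.01-fold higher (3.49 to 4.62). Those past 2-fold included Tob1, Ccr7, Tcf7 and Lef1, of which Ccr7, Tcf7 and Lef1 are genes of naive T cells, while Tsc1, Foxo1 and Foxp1 stood at 0.917, 0.938 and 1.07.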

How the data were processed

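The authors deposited raw counts, whole numbers of reads per gene symbol, with 1 column for each of the 2 libraries. Per the labels' protocols, a column kit gave the RNA and a SMARTer messenger RNA kit the libraries. The submitters' processing notes name the builds GRCm39 and mm39, and the aligner, the counting program and the strand setting were not given in the sources used here. Library sizes were scaled with TMM factors from edgeR 4.0.16 (R 4.3.3) over genes holding at least 20 counts in all, which were 0.966 and 1.04. Ratios carry exact Clopper-Pearson 95% intervals from the split of the combined count. Since reads carried no stated molecular identifiers and may repeat molecules, intervals and floors cover only counting error, apart from the intervals of list medians. Log2 ratios carry a prior count of 2. Exon and coding lengths and shared 50-base stretches come from GENCODE release M21 (GRCm38), and promoters from RefSeq (GRCm38.p6), whose motifs were chosen after the ratios were seen. The 19 gene lists held 248 entries, 8 of them not matched to a symbol. Members and lists were chosen with earlier results of these data known. Named genes are the members, the other Slfn symbols, interferon signalling genes with at least 100 counts, and from each other list the most abundant and most different gene. Further genes were named after their values were seen (the quiescence genes beyond that rule, Oasl1, Ang, Ang2, Unc45b, Ly6c2, Ccr2, the interferon genes with few counts, and markers at 0), and some genes the rule names are not reported here. Alternatives were total counts, DESeq2 1.42.0 size factors, upper quartile, other limits and priors, summed paralogs, and scaling to the leukocyte and epithelial lists. The calculation was tested on simulated data. Python 3.11.15 with scipy 1.17.1 and biopython 1.88 was used.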

Additional observations from a re-analysis of the deposited data

How the results depend on the processing

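No paired analysis was possible because each group held 1 library, and for the same reason no library could be left out. The number of members past the limit, 0 of 7, stayed at 0 with DESeq2 size factors, upper quartile scaling, a 4-fold limit, no interval and count minimums of 1 and 100. It became 1 by total counts (Slfn8), 5 at 1.5-fold, 1 with scaling to the leukocyte list (Slfn4) and 4 with scaling to the epithelial list. Of all genes tested, 10.4% were higher past 2-fold by total counts and 19.1% by the epithelial list. By the leukocyte list 1630 of 18687 were lower past 2-fold. The ratio of the summed family, 1.39, was 1.49 by total counts, 1.14 by the leukocyte list and 2.02 by the epithelial list. Leaving out single members gave 1.52 without Slfn2, 1.49 without Slfn4, 1.34 without Slfn5, 1.33 without Slfn8 and 1.29 without Slfn9. Total counts shifted the median log2 ratio of all genes tested by 0.10, and the share of calls that were higher went from 65.3% to 43.4% by the leukocyte list and to 90.9% by the epithelial list. The members' median log2 ratio became 1.15 by the epithelial list. Directions turned for Slfn2 (0.924) and Slfn3 (0.952, interval 0.862 to 1.05) by the leukocyte list and for Slfn3 summed with Slfn4 (0.679), where the more abundant Slfn4 sets the sum. The macrophage median turned to 0.20 by the epithelial list. List medians gave 95 values under total counts, DESeq2 size factors, upper quartile scaling and other prior counts. Of these, 94 stayed within the 95% interval of the main median, taken from the ranked genes of each list. That interval covers the spread of genes in a list, as from 3.67 to 6.51 for the B cell list. The scalings among these settings shifted the median of all genes tested by at most 0.10. Staying inside therefore does not show that the medians are robust. Of 38 under scaling to the leukocyte or epithelial list, 28 stayed, 9 moved and 1 turned. Scaling to lists was added after the data were seen. Depth limited little for the 7 members, with at least 677 counts each, but Slfn14 and Slfnl1 could not be compared.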

Other observations

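Over all genes tested that have a RefSeq promoter window, 474 held the interferon-stimulated response element core found in Slfn5, Slfn8 and Slfn9. Of these, 117 (24.7%) were at least 1.5-fold higher with acupuncture and 35 (7.38%) at least 1.5-fold lower, with a median log2 ratio of 0.18. Among the 13891 genes without the core, 13.3% were higher and 9.80% lower at that limit, with a median of -0.002. For the gamma-activated sequence core, 15.8% of 1072 genes with it and 13.5% of 13293 genes without it were higher. These shares describe these 2 libraries, and the 3 Schlafen genes are among the 474.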
